A study of Mus musculus with 6 samples.

Results

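The DEAD and DEAH box RNA helicases, named after the amino acids of a short motif in their ATP-binding site, were followed in mouse oocytes with an intact germinal vesicle, grown either in vitro or in vivo. Members were all rows of the authors' table whose symbol begins with Ddx or Dhx and a digit, leaving out Ddx4. This gave 47 of 10896 genes, 33 with a Ddx symbol and 14 with a Dhx symbol. The rule uses names alone, but the family and the lists of roles and partners used below were chosen with earlier results of these data known. The in vitro group held 3 samples of 50 oocytes grown in follicles, which were freed with collagenase from the ovaries of 2 to 5 (C57BL x CBA) F1 females aged 10 to 12 days. These follicles were cultured on membrane inserts in MEM-alpha medium to which fetal bovine serum, follicle stimulating hormone, selenium, insulin and transferrin were added. The in vivo group held 3 samples of 50 oocytes released by needle from ovaries of adult F1 females of the same cross, aged 7 to 11 weeks, into M2 medium with dbcAMP. Culture, donor age and the collection medium go together in this design and cannot be told apart, and whether samples of 1 group shared a culture or an animal is not given in the labels.

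DEAD and DEAH box proteins use ATP to open short RNA duplexes or to strip proteins from RNA, and between them they serve nearly every step in the life of an RNA: splicing, export, ribosome assembly, translation, storage and decay. DEAD box proteins act locally on a bound duplex, whereas most DEAH box proteins pull themselves along a single strand. A fully grown oocyte makes little new RNA and lives on stored messages, so that maternal transcripts of such genes are carried into the egg.

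The motif itself can be read in the coding sequence. In GENCODE vM21 transcripts, the Walker B box (helicase motif II) downstream of a Walker A motif was found in 43 of 47 members. The same pattern was found in 185 of 21877 genes with a protein-coding transcript (0.846%). Members were read from the transcript with the longest open reading frame and all genes from their longest transcript, so the searches are not fully alike. The 4 members without a match, Ddx1, Ddx11, Ddx60 and Dhx32, lack the searched pattern within the searched distance and no more. Windows of 30 bases are printed for the called members with a match, since the fourth codon is where the DEAD and the DEAH type part, with CAN in the DEAH type. Capitals mark the 4 codons of the box.
Ddx41: ctagccctgGATGAAGCTGACcgcatgatt
Ddx31: ctgattgtgGATGAAGCAGACaggatcttg
Ddx10: ttagttcttGATGAGGCAGATagaatcttg
Ddx20: tttattcttGATGAAGCAGATaagctttta
Ddx49: ctggtgatgGATGAGGCCGACaggctgctg
Ddx50: gttgtgcttGATGAAGTAGATcaaatgtta
Ddx39: tttgtgctaGATGAATGTGACaagatgctg
Ddx58: atgatatttGATGAGTGTCATaacactagc
Dhx33: gtcattttgGACGAGGCCCATgagcggact
Dhx29: gtcattgtcGATGAGGTCCATgagagaagt
Dhx57: atcattgttGATGAAGTTCATgagaggaca
Dhx36: attgtacttGATGAAATTCATgaaaggaat
All 13 Dhx members with a match ended the box in CAN, and so did Ddx58. The third codon was GCN in 31 members and GTN in 7, among them Ddx50, Dhx29 and Dhx57.

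The values were group means of normalised reads, one per gene and group, as the authors gave them. A gene was called at a PPEE below 0.05 in the authors' deposited table, where PPEE was read as the posterior probability of equal expression in both groups. Reads per library could be worked back from the means for 35 members. In these 3 in vitro and 3 in vivo libraries, lettered A to C by size factor because nothing ties them to the sample numbers and always given in that order, between 1252256 and 1852481 reads were recovered over 8798 genes. Recovery is less certain at higher means: between means of 600 and 800 a deliberately shifted value also gave whole reads in 66.7% of in vitro and 76.3% of in vivo cases, which bears on Ddx41, Ddx39, Dhx57 and the in vitro reads of Dhx29 among the called members. Between means of 450 and 600 such solutions came in 36.3% of in vitro and 54.1% of in vivo cases, which bears on Ddx50 and Ddx49. One library stood out in the tests: without in vitro library A, limma voom called 26.0% of these genes, against 9.45% with all 6 libraries. Oocyte marker genes were abundant in both groups, with summed means of 140532 in vitro and 173839 in vivo over 12 genes, of which Bmp15 and Kit were called lower in vitro. Of 10 granulosa cell markers 7 had a row, summing to 397 in vitro and 281 in vivo, none was at 0, and both called ones, Fshr and Inha, were higher in vitro. Of 5 theca and 5 blood cell markers 1 each had a row, Cyp11a1 with means of 5.84 in vitro and 9.76 in vivo and Cd68 with 14.1 in vitro and 10.8 in vivo. Their part in the results on helicases was not tested.

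In oocytes grown in vitro, 4 of the 47 helicase genes were called higher and 9 lower in the authors' deposited table, 27.7% of them beside 15.1% of all genes. Called higher were Ddx20, Dhx33, Ddx39 and Ddx49. Called lower were Ddx60, Ddx41, Dhx29, Ddx31, Ddx10, Ddx50, Dhx57, Dhx36 and Ddx58. By direction, 8.51% of the members and 6.75% of all genes were called higher in vitro, and 19.1% of the members and 8.31% of all genes were called lower. The shares of all genes are not matched for level. Median means were 288 in vitro and 336 in vivo for the members, beside 135 and 127 for all genes. Whether level bears on the called shares was not tested. Fewer cells of a type and less RNA per cell cannot be told apart in such bulk samples. Most of these differences were small, since 11 of the 13 called members lay below 2-fold, and no uncalled member reached 2-fold (4.26% of members at 2-fold or more, beside 11.1% of all genes). The median log2 change of the members, in vitro over in vivo, was -0.12, beside 0.02 over all genes. At a call rule that also asked for at least 1.5-fold, 3 members (6.38%) were higher and 5 (10.6%) lower, beside 4.41% and 5.69% of all genes.

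**Figure D1:**
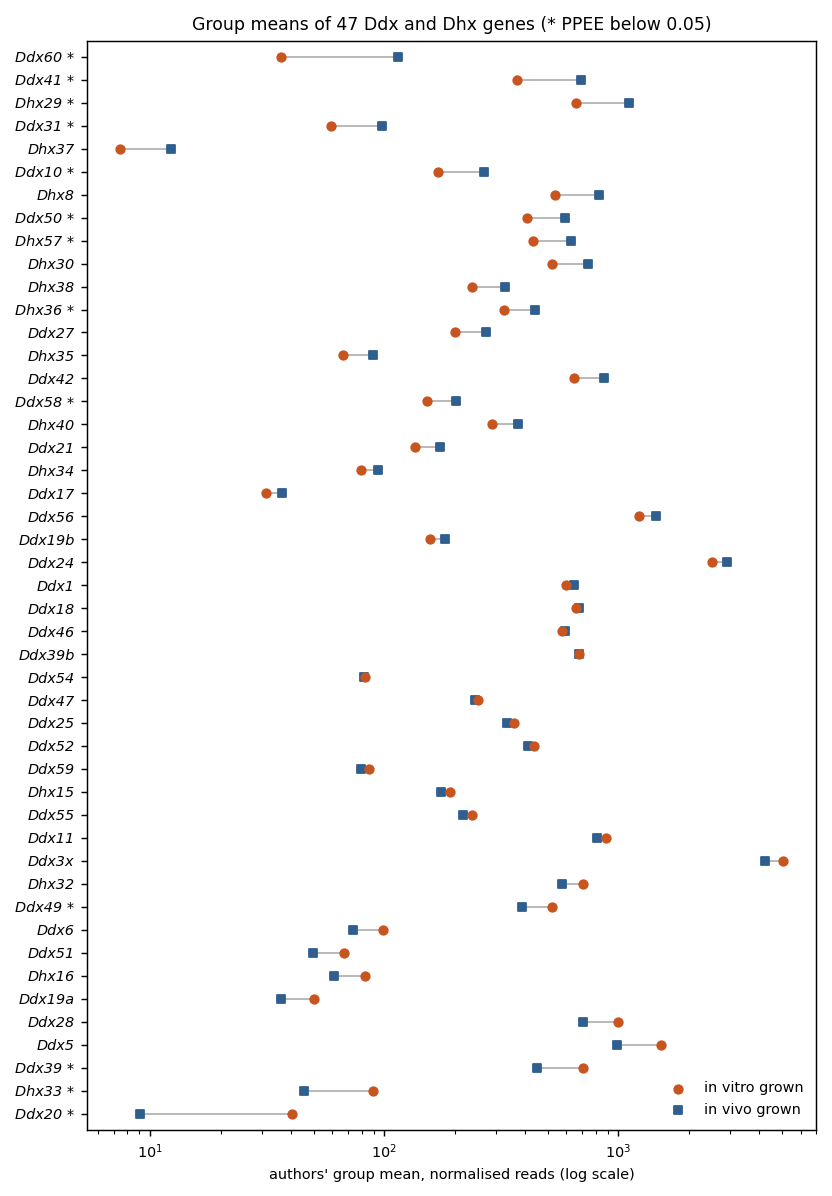
Authors' group means of the 47 members, in normalised reads on a log scale, with in vitro grown oocytes as circles and in vivo grown oocytes as squares, ordered from the lowest to the highest change in vitro. Ddx60 at the top and Ddx20 at the bottom are the only members at least 2-fold apart, and asterisks mark the 13 members with a PPEE below 0.05.

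Per kilobase of gene length, members ranged widely in level. Ddx3x, which helps ribosomes start on structured messages, stood highest with 1106 normalised reads per kb in vitro and 923 in vivo. Ddx24, a nucleolar helicase, followed with 866 per kb in vitro and 999 in vivo. Both lay above percentile 95 of all genes in either group, at 96.7 and 95.9 for Ddx3x in vitro and in vivo and at 95.6 and 96.3 for Ddx24. Next in vitro were Ddx28 with 532 per kb in vitro and 375 in vivo, Ddx5 with 433 in vitro and 281 in vivo, and Ddx39 with 424 in vitro and 271 in vivo. Dhx37, a ribosome assembly helicase, was lowest, with 1.76 per kb in vitro and 2.90 in vivo. The middle of the family, at a median of 83.8 per kb in vitro and 104 in vivo, lay above the middle of all genes, at 47.6 in vitro and 45.7 in vivo. By unscaled mean over both groups, the 5 highest members were Ddx3x, Ddx24, Ddx56, Ddx5 and Dhx29. Ddx3x had means of 5057 in vitro and 4218 in vivo, 1.20-fold higher in vitro, and the authors' deposited table listed a PPEE of 0.572. Ddx24 had 2516 in vitro and 2902 in vivo, 1.15-fold lower in vitro, and the authors' deposited table listed a PPEE of 0.931. For Ddx56, a nucleolar helicase of the large ribosomal subunit, the means were 1229 in vitro and 1440 in vivo, 1.17-fold lower in vitro, and the authors' deposited table listed a PPEE of 0.835. Ddx5, a helicase of transcription and splicing, had means of 1523 in vitro and 991 in vivo, a 1.54-fold higher level in vitro that was not called, and the authors' deposited table listed a PPEE of 0.402.

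The helicase that took the largest step up in vitro was Ddx20, also called Gemin3, a core part of the SMN complex that loads Sm proteins onto spliceosomal RNAs. Recovery gave 26, 42 and 43 reads of Ddx20 in vitro, against 16, 2 and 11 in vivo. After scaling these were 23.9, 43.5 and 53.3 normalised reads in vitro, against 12.9, 1.77 and 12.4 in vivo. Every in vitro library lay above every in vivo library, and in vivo library B, with 2 reads, lay well under the others. Ddx20 averaged 40.3 ± 15.0 in vitro and 9.04 ± 6.30 in vivo, in normalised reads (SD, n = 3 each), which is 4.45-fold higher in vitro, and the authors' deposited table listed a PPEE of 0.000416. Limma voom called it as well, with a log2 change of 2.41 (SE 0.63) and an adjusted p of 0.0375. The call was kept without in vitro library A (adjusted p = 0.00246) and lost without any other single library, at an adjusted p between 0.0653 and 0.153. Without in vivo library B the log2 change was 1.52. No other SMN complex gene on the list of partners was called.

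The lowest log2 change of the family was that of Ddx60, one of 2 measured helicases linked to sensing of foreign RNA. Ddx60, an interferon-induced antiviral helicase, had 33, 48 and 23 recovered reads in the 3 in vitro libraries and 128, 157 and 88 in the 3 in vivo libraries. In normalised reads it stood at 30.3, 49.8 and 28.5 in vitro, against 103, 139 and 99.4 in vivo. The groups did not overlap, and even the highest in vitro library, B, stayed well under the lowest in vivo library, C. Its mean in normalised reads was 36.2 ± 11.8 in vitro and 114 ± 21.8 in vivo (SD, n = 3 each), a 3.15-fold lower level in vitro, and the authors' deposited table listed a PPEE of 1.22e-09. Limma voom gave a log2 change of -1.67 (SE 0.30) and an adjusted p of 0.00702. With single libraries left out of this fit to genes with means below 200, the adjusted p lay between 0.00285 and 0.0579, and the call was lost without in vitro library C. In a wider fit to means below 1000, Ddx60 had an adjusted p of 0.0124 and lost the call without in vitro library C (0.0740), in vivo library A (0.0622) or in vivo library B (0.0593). Ddx58, which encodes the cytosolic sensor RIG-I, is the other and was called lower by a smaller margin. Its libraries held 138, 180 and 139 normalised reads in vitro, against 194, 206 and 206 in vivo, without overlap. It averaged 152 ± 24.2 in vitro and 202 ± 6.89 in vivo (SD, n = 3 each), 1.33-fold lower in vitro, and the authors' deposited table listed a PPEE of 0.0318. Limma voom did not call Ddx58 (adjusted p = 0.157).

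Interferons switch on such genes through a promoter element with a pair of GAAA blocks, and the promoters of these helicases are shown because both genes are known targets. RefSeq promoter windows of build GRCm38.p6, from 250 bases before to 50 bases after the gene start, were found for 43 members and searched for GAAANNGAAA and its reverse complement TTTCNNTTTC. The element's core was in 1131 of 32851 windows of all genes (3.44%) and in 4 of 54 member windows (7.41%). By gene, it was in 3 of 43 members (6.98%), beside 3.99% of all genes with a window. These members were Ddx60, Ddx58 and Ddx49. Capitals mark the matches. The Ddx60 window, on the plus strand at chr8:61927837-61928136, held 2 matches, a pattern found in 0.225% of all windows. The Ddx58 window lies on the minus strand at chr4:40239776-40240075, and its match is on the opposite strand to the gene. The Ddx49 window shown lies on the minus strand at chr8:70302422-70302721. Another Ddx49 window, at chr8:70302403-70302702, overlaps it and holds the same match.
Ddx60: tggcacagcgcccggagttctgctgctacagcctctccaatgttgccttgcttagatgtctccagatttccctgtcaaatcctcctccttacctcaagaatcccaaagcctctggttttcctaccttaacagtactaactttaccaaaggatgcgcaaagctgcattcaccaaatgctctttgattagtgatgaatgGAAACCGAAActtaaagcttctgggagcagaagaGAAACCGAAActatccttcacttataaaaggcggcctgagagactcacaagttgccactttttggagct
Ddx58: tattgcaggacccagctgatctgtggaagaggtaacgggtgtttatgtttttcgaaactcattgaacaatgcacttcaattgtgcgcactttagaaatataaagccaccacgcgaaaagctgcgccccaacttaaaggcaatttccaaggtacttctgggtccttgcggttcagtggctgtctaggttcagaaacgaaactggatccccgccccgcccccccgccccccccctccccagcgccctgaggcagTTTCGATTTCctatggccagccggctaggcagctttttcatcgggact
Ddx49: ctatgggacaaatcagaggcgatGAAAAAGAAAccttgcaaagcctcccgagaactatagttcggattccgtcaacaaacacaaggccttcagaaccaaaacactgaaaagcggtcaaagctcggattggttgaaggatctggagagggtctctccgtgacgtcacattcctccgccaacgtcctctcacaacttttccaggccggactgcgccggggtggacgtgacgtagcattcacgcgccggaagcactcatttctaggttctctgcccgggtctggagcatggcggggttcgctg
Counted from the gene start, the matches began at -53 and -19 in Ddx60, at 3 in Ddx58 and at -227 in the Ddx49 window shown. In the other Ddx49 window the match began at -246. Of the members whose windows hold the element, Ddx60 and Ddx58 were called lower in vitro and Ddx49 higher. A match is a string of letters and says nothing of binding in these oocytes.

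**Figure D2:**
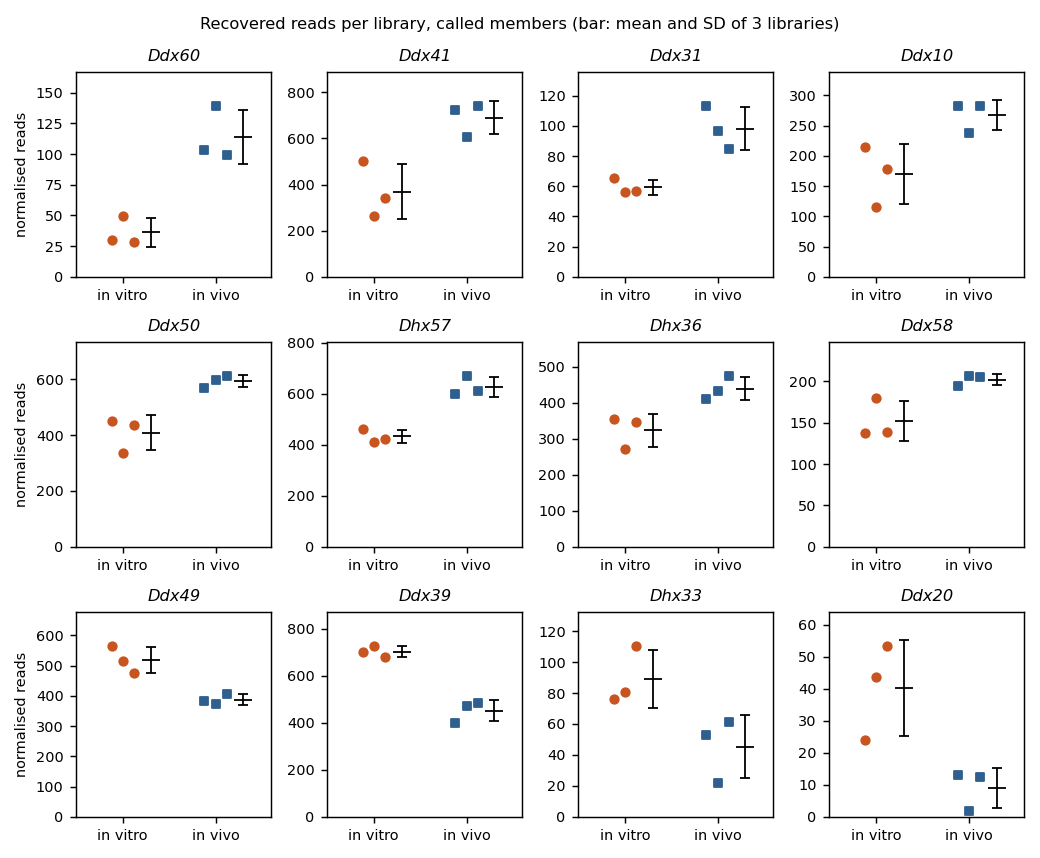
Normalised reads in each recovered library for the 12 called members with recovered reads, in vitro libraries (A to C, circles) left of in vivo libraries (A to C, squares), with the mean and SD of 3 libraries as a black bar. The 3 in vitro points lie on one side of the 3 in vivo points in every panel, with the widest gaps by fold for Ddx20 and Ddx60. The panels were picked by calls on these same data, so this separation is not separate support for the calls. Libraries also did not overlap for 17 of the 35 members and 34.8% of all genes with recovered reads.

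The 16 helicases of ribosome biogenesis, which unwind precursor RNA in the nucleolus, were called in both directions: 2 higher and 3 lower in vitro, with a median log2 change of -0.13. These calls were 12.5% higher and 18.8% lower, beside 6.75% and 8.31% of all genes. Dhx33, described in human cells as a nucleolar helicase of ribosomal RNA synthesis, had 76.3, 80.9 and 110 normalised reads in the in vitro libraries, against 52.6, 22.1 and 61.0 in the in vivo ones. The groups did not overlap, although in vivo library B was far below its companions. Dhx33 averaged 89.2 ± 18.5 in vitro and 45.2 ± 20.4 in vivo (SD, n = 3 each), 1.97-fold higher in vitro, and the authors' deposited table listed a PPEE of 0.0233. By limma voom it had an adjusted p of 0.0607, and without in vitro library A an adjusted p of 0.0175. Its log2 change of 1.08 was 0.63 without in vivo library B. Ddx49 was the other one called higher, with 565, 515 and 476 normalised reads in vitro, against 382, 374 and 408 in vivo. With means of 519 ± 44.5 in vitro and 388 ± 17.6 in vivo (SD, n = 3 each) that was 1.34-fold higher in vitro, the authors' deposited table listed a PPEE of 2.23e-07 and limma voom gave an adjusted p of 0.0760.

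Ddx31, Ddx10 and Ddx50 were the ribosome biogenesis helicases called lower in vitro. Ddx31 stood at 65.2, 56.0 and 57.1 normalised reads in vitro, against 113, 96.5 and 84.7 in vivo, without overlap. At means of 59.4 ± 5.07 in vitro and 98.1 ± 14.3 in vivo (SD, n = 3 each) it was 1.65-fold lower in vitro, and the authors' deposited table listed a PPEE of 0.000573. Ddx10 stood at 214, 116 and 179 in vitro, against 282, 238 and 282 in vivo, again without overlap. Its means of 170 ± 49.6 in vitro and 268 ± 25.4 in vivo (SD, n = 3 each) made it 1.58-fold lower in vitro, and the authors' deposited table listed a PPEE of 0.0260. In vitro library B was the lowest for Ddx10 and in vitro library A came nearest to the in vivo range. Ddx50, a close relative of the nucleolar helicase Ddx21, stood at 450, 336 and 437 in vitro, against 570, 598 and 611 in vivo. Ddx50 averaged 408 ± 62.5 in vitro and 593 ± 20.9 in vivo (SD, n = 3 each), 1.45-fold lower in vitro, and the authors' deposited table listed a PPEE of 5.80e-07. Limma voom gave a log2 change of -0.55 (SE 0.15) and an adjusted p of 0.0452. That call was kept without in vitro library A (0.00917) and lost without any other library, at up to 0.152. Ddx21 itself had 144, 120 and 140 in vitro, against 192, 147 and 178 in vivo, without overlap but not called (PPEE 0.363, the authors' deposited table). Limma voom called neither Ddx31 (adjusted p = 0.0820) nor Ddx10 (adjusted p = 0.0648). The remaining members of the group were Ddx18, Ddx24, Ddx27, Ddx47, Ddx51, Ddx52, Ddx54, Ddx55, Ddx56 and Dhx37, and none was called. Among them Ddx27 had 244, 190 and 169 normalised reads in vitro, against 262, 258 and 294 in vivo, without overlap. Ddx27 was 1.35-fold lower and Dhx37 1.65-fold lower in vitro, while Ddx51 was 1.35-fold higher. Ddx18, Ddx47, Ddx52, Ddx54 and Ddx55 lay within 1.04-fold, 1.03-fold, 1.06-fold, 1.01-fold and 1.09-fold of their in vivo means.

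Splicing helicases numbered 11, of which 0 were called higher and 1 lower in vitro at a median log2 change of -0.23. Called lower were thus 9.09%, near the 8.31% of all genes, and 6.75% of all genes were called higher. The called gene was Ddx41, a helicase found in late spliceosomes, with 502, 265 and 341 normalised reads in the 3 in vitro libraries, against 723, 607 and 740 in the 3 in vivo libraries. The groups did not overlap, and in vitro library A lay closest to the in vivo libraries. Ddx41 averaged 369 ± 121 in vitro and 690 ± 72.4 in vivo (SD, n = 3 each), 1.87-fold lower in vitro, and the authors' deposited table listed a PPEE of 0.000665. Limma voom gave it a log2 change of -0.93 (SE 0.20) with an adjusted p of 0.0222, which was kept without in vitro library A (0.000341) or in vivo library C (0.0486) and lost without any other, at up to 0.0970. Among the DEAH box helicases that drive the spliceosome through its cycle, means lay on either side of the in vivo ones and no gene was called. Dhx16, which acts before the first splicing step, had 64.3, 92.3 and 90.6 normalised reads in vitro, against 57.4, 62.9 and 63.2 in vivo, without overlap, and the authors' deposited table listed a PPEE of 0.712. Dhx38, which acts between the first and the second step, had 299, 197 and 213 in vitro, against 316, 376 and 290 in vivo, with overlap, and the authors' deposited table listed a PPEE of 0.394. Dhx8, which releases the spliced message, was 1.54-fold lower in vitro, with means of 536 in vitro and 826 in vivo, and the authors' deposited table listed a PPEE of 0.126. In the in vitro libraries Dhx8 held 690, 388 and 531 normalised reads, with library B lowest. Dhx15, which takes spent spliceosomes apart, kept a narrow range, with 185, 195 and 191 normalised reads in vitro, against 170, 170 and 186 in vivo. Ddx46, of the early spliceosome, lay within 1.03-fold of its in vivo mean, and Ddx42 was 1.34-fold lower and Dhx35 1.35-fold lower in vitro, all uncalled. Ddx17, the close relative of Ddx5, was lower in vitro by 1.18-fold at low means of 31.1 in vitro and 36.6 in vivo, with wide overlap between libraries.

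Among 5 helicases of mRNA export, 1 was called higher in vitro, Ddx39, and 0 lower. Over all genes, 6.75% were called higher and 8.31% lower. Ddx39, listed in RefSeq as Ddx39a, and its near twin Ddx39b encode alternative helicases that hand spliced messages to the export machinery. Ddx39 had 702, 727 and 681 normalised reads in vitro, against 399, 469 and 482 in vivo, a clear separation with tight in vitro libraries. It averaged 703 ± 22.8 in vitro and 450 ± 44.6 in vivo (SD, n = 3 each), 1.56-fold higher in vitro with a PPEE listed as 0 in the authors' deposited table. The log2 change by limma voom was 0.65 (SE 0.14) with an adjusted p of 0.0204, kept without in vitro library A (0.00442), in vitro library B or in vivo library C and lost without any other, at up to 0.104. Ddx39b stood at 725, 674 and 629 in vitro, against 644, 696 and 702 in vivo, with full overlap, and the authors' deposited table listed a PPEE of 0.987. Whether the changes of Ddx39 and Ddx39b differ from each other was not tested, and reads of such similar genes could be split between them by the counting. Ddx19a and Ddx19b, which release exported messages at the nuclear pore, were 1.38-fold higher and 1.16-fold lower in vitro, neither of them called. Neither gave whole reads in either group, and as near-identical neighbours their levels are uncertain. Ddx25, known in mice as a hormone-regulated helicase of male germ cells, was present at 341, 405 and 324 normalised reads in vitro, against 294, 337 and 375 in vivo, and its groups overlapped.

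Of 6 helicases of translation, storage and decay in the cytoplasm, 0 were called higher and 3 lower in vitro, with a median log2 change of -0.28. The share called lower was 50.0% of a short list, beside 8.31% of all genes called lower and 6.75% higher. Dhx29, which helps ribosomes scan structured leaders, had means of 661 in vitro and 1106 in vivo, 1.67-fold lower in vitro, and the authors' deposited table listed a PPEE of 5.66e-05. In the in vitro libraries Dhx29 held 752, 526 and 705 normalised reads, and for the in vivo mean no reads were worked out at its height. Dhx57, whose role is little described and which was listed here by resemblance, stood at 463, 412 and 424 in vitro, against 599, 670 and 611 in vivo. Dhx57 averaged 433 ± 26.9 in vitro and 627 ± 37.7 in vivo (SD, n = 3 each), 1.45-fold lower in vitro, and the authors' deposited table listed a PPEE of 3.46e-14. Limma voom gave a log2 change of -0.53 (SE 0.14) and an adjusted p of 0.0375. That call, too, was kept only without in vitro library A (0.00921) among single omissions, which otherwise gave up to 0.155. Dhx36, which resolves G-quadruplexes in RNA, stood at 354, 271 and 346 in vitro, against 412, 433 and 474 in vivo. With means of 324 ± 46.0 in vitro and 440 ± 31.9 in vivo (SD, n = 3 each) it was 1.36-fold lower in vitro, and the authors' deposited table listed a PPEE of 0.00259. Limma voom did not call Dhx36 (adjusted p = 0.0920). Ddx6, which holds maternal messages silent in oocytes, went the other way at 100, 105 and 91.8 normalised reads in vitro, against 51.7, 85.9 and 83.6 in vivo. Its groups did not overlap, yet it was not called, the authors' deposited table listed a PPEE of 0.380 and limma voom gave an adjusted p of 0.236. Ddx1, a part of the tRNA ligase complex, lay within 1.09-fold of its in vivo mean.

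**Figure D3:**
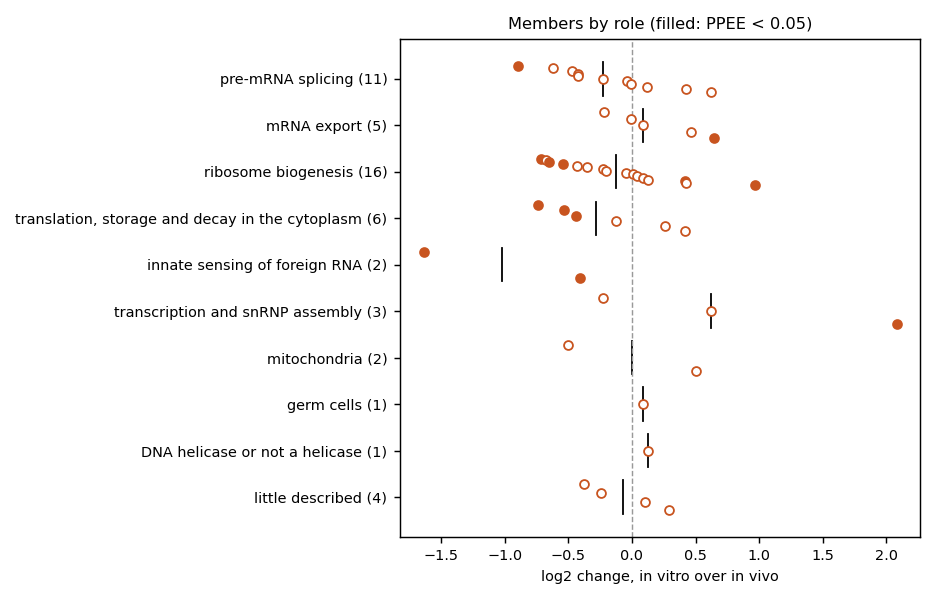
Log2 change of each member, in vitro over in vivo (the deposited value with its sign turned), by role, with filled points for a PPEE below 0.05 and a black line at the median of each role. Members with 2 roles appear under both. Called members lie on both sides of 0 for ribosome biogenesis and only below 0 for the splicing, cytoplasmic and innate sensing groups.

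Of the 3 helicases of transcription and snRNP assembly, Ddx20 was called higher, and Ddx5 and Ddx17, also counted with splicing, were not called. This 1 gene is 33.3% called higher, beside 6.75% of all genes. The members outside these roles held no call. The mitochondrial helicases Ddx28 and Dhx30, both of mitochondrial ribosome assembly, had opposite signs at 1.42-fold higher and 1.42-fold lower in vitro, and PPEE values of 0.939 and 0.113, per the authors' deposited table. The in vivo libraries of Ddx28 were far apart, at 748, 395 and 964 normalised reads. Dhx30 held 609, 366 and 584 normalised reads in the in vitro libraries, with library B again lowest. Ddx11, a DNA helicase by function, was 1.09-fold higher in vitro. Dhx40 had 306, 226 and 331 normalised reads in vitro, against 333, 408 and 379 in vivo, without overlap and without a call. The little described Dhx32, Dhx34, Dhx40 and Ddx59 were 1.23-fold higher, 1.19-fold lower, 1.30-fold lower and 1.08-fold higher in vitro.

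Means below those in vivo were frequent among members with Dhx symbols. Of 14 Dhx members 10 had a lower mean in vitro, 3 of them called, and 4 a higher one, 1 of them called, with a median log2 change of -0.43. The called shares were 21.4% lower and 7.14% higher, beside 8.31% and 6.75% of all genes. Of 33 Ddx members 17 had a lower and 16 a higher mean in vitro, with a median log2 change of -0.01. By the box, over all 43 members with a match and not only those printed, 11 of 14 members with CAN as the fourth codon had a lower mean in vitro. These are the Dhx members with a match and Ddx58, so this count largely repeats the one by symbol. Over all genes 51.1% had a higher mean in vitro. These are counts of genes that share libraries, and no test of the lists was made. Dhx29, Dhx37, Dhx8 and Dhx30 lacked recovered reads in a group and are not in the library values below. All had lower means in vitro, with log2 changes of -0.74, -0.68, -0.62 and -0.50. The library values therefore do not describe the 14 Dhx members as a whole. Library by library, the 10 Dhx members with recovered reads had a median log2 departure from the in vivo mean of -0.03 in in vitro library A, -0.61 in in vitro B and -0.08 in in vitro C. The Dhx median was lowest in in vitro library B, where 7 of the 10 lay below their in vivo mean, beside 5 each in in vitro A and C. In the in vivo libraries 8, 5 and 3 of the 10 lay below that mean, the highest of these counts being in in vivo library A, and the in vivo medians were -0.05, 0.01 and 0.06. In the 25 Ddx members with reads the in vitro medians were 0.02, -0.10 and -0.18. Over all genes with recovered reads the in vitro medians were 0.02, 0.05 and 0.02.

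**Figure D4:**
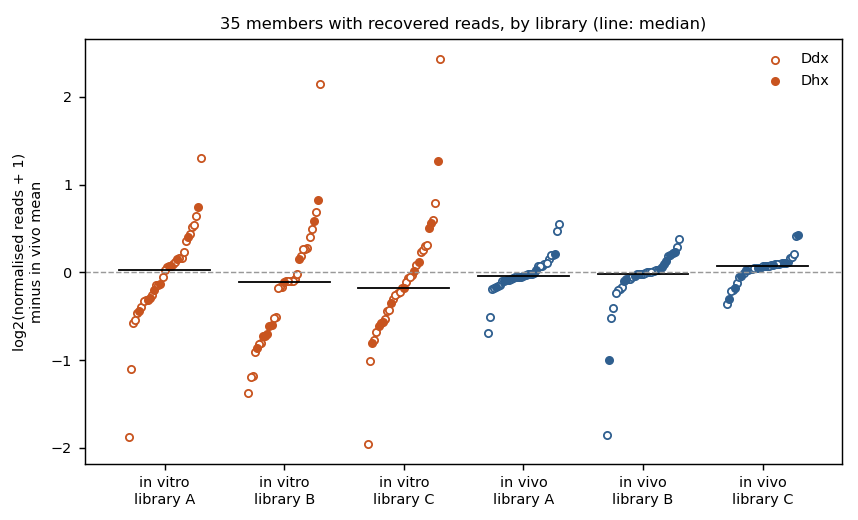
Departure of each of the 35 members with recovered reads from its in vivo mean, as log2(normalised reads + 1), in each library, with in vitro libraries on the left, filled points for Dhx and open points for Ddx members, and a line at the median. Medians over all 35 members are 0.02, -0.10 and -0.17 in the 3 in vitro libraries and -0.05, -0.02 and 0.07 in the 3 in vivo libraries.

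Taking the libraries as replicates, limma voom was fitted to the 5802 recovered genes with both means below 200, 14 of them members. It called Ddx20 higher and Ddx60 lower in vitro, 2 of 14, beside 6.38% of these genes, 3.55% higher and 2.83% lower. At an unadjusted p below 0.05 there were 4 members (28.6%), beside 26.2% of the genes. A wider fit below a mean of 1000, added after the data were seen, held 35 members and called 6, or 15 (42.9%) at an unadjusted p below 0.05, where 30.4% of its genes lay. The called share of its genes was 9.45%. The 6 were Ddx20 and Ddx39, higher in vitro, and Ddx60, Ddx41, Ddx50 and Dhx57, lower in vitro, all of them also called by PPEE in the authors' deposited table. In that fit 4.98% of 8798 genes were called higher and 4.47% lower. Its count of members was 14 without in vitro library A, 2 without in vitro library B and 3 without in vivo library C, where 26.0%, 1.84% and 5.55% of all its genes were called. It was 0 without any of the remaining libraries, where 10 to 12 members and 21.4% to 23.6% of all genes had an unadjusted limma voom p below 0.05. The first fit called 3 members without in vitro library A, where 17.8% of its genes were called. It called 0 members without in vitro library C, where 0.5% of genes were called and 4 of 14 members and 1159 of 5802 genes had an unadjusted p below 0.05. Without any other library it called 1, beside 0.5% to 3.83% of genes. Adjusted p-values given above for Ddx6, Ddx20, Ddx31, Ddx60 and Dhx33 come from the first fit and all others from the wider one. Libraries of both groups did not overlap for 17 of the 35 members, 6 higher and 11 lower in vitro, beside 34.8% of all genes with recovered reads, 18.9% higher and 15.9% lower.

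RNA helicases with other symbols were called in both directions: among 19 measured, 2 stood higher and 2 lower in vitro, 10.5% each beside 6.75% and 8.31% of all genes, at a median log2 change of -0.08. Upf1, the helicase of nonsense-mediated decay, had means of 64.6 in vitro and 24.9 in vivo, 2.60-fold higher in vitro, and the authors' deposited table listed a PPEE of 0.0210. Eif4a3, of the exon junction complex, was 1.15-fold higher in vitro, and the authors' deposited table listed a PPEE of 0.0306. Tdrd9, a DEAH box helicase of the piRNA pathway, had means of 320 in vitro and 783 in vivo, 2.45-fold lower in vitro, and the authors' deposited table listed a PPEE of 3.94e-06. Aqr, an intron-binding helicase of the spliceosome, stood at 246, 205 and 232 normalised reads in vitro, against 364, 383 and 325 in vivo, 1.57-fold lower in vitro, and the authors' deposited table listed a PPEE of 5.04e-12. Limma voom called Upf1 in the first fit (adjusted p = 0.0476) and Aqr in the wider one (adjusted p = 0.0325). Eif4a3 and Tdrd9 were in neither fit.

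Known protein partners of the members were counted in the same way, and 1 of 33 was called higher and 4 lower in vitro, 15.2% of them, near the 15.1% of all genes. The median log2 change of the partners was -0.02. Of the listed partners of the storage helicase Ddx6, Patl1, Patl2 and Eif4enif1 were called, and not all in one direction. Its other listed partners with a row, Lsm14a, Lsm14b, Edc3 and Cnot1, were not called by PPEE. Patl1, a decay factor, was 1.72-fold higher in vitro with means of 104 in vitro and 60.7 in vivo, and the authors' deposited table listed a PPEE of 0.0389, while limma voom did not call it (adjusted p = 0.0902). Its oocyte relative Patl2 was 1.39-fold lower with means of 759 in vitro and 1059 in vivo, and the authors' deposited table listed a PPEE of 5.24e-12. Eif4enif1, which binds the cap factor in stored messages, was 1.77-fold lower with means of 3946 in vitro and 6989 in vivo, and the authors' deposited table listed a PPEE of 7.80e-05. Eif4g1, the scaffold of translation initiation, was 1.56-fold lower in vitro, and the authors' deposited table listed a PPEE of 0.00304, while limma voom did not call it (adjusted p = 0.0502). Rbm5, a splicing regulator that works with Dhx15, had 131, 85.0 and 99.3 normalised reads in vitro, against 242, 205 and 251 in vivo. It was 2.21-fold lower in vitro, the authors' deposited table listed a PPEE of 1.21e-12 and limma voom gave an adjusted p of 0.0146 in the wider fit. Limma voom also called 2 partners that PPEE did not, named here after their values were seen. Lsm14b, another Ddx6 partner of stored messages, had 44.1, 218 and 146 normalised reads in vitro, against 43.7, 25.7 and 20.3 in vivo, so that in vitro library A lay beside in vivo library A. Lsm14b was 4.55-fold higher in vitro, the authors' deposited table listed a PPEE of 0.222 and the adjusted p was 0.0492 in the first fit and 0.0594 in the wider one. Rbm17, a splicing factor, had 123, 366 and 247 in vitro, against 103, 99.2 and 80.2 in vivo. Rbm17 was 2.60-fold higher in vitro, the authors' deposited table listed a PPEE of 0.386 and the adjusted p was 0.0494 in the wider fit.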

How the data were processed

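RNA of 6 samples of 50 oocytes was measured by sequencing of cDNA amplified from 10 ng of total RNA, per the labels' protocols. The submitters' processing notes name BWA, with no version, and build mm9. The counting tool and scale factors are not given in the sources used here. The authors deposited 1 signal per gene and group, a mean of normalised reads over 3 samples, not scaled by length. They also deposited log2 ratios, in vivo divided by in vitro, turned in sign here, and a PPEE, which is not a p-value and whose reading rests on the usual meaning of the term.

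Each mean is made of whole reads, every library adding its reads times a fixed step. Steps were found from repeated differences among low means, and means were solved for whole reads to 10 significant digits. A single solution was found for 95.1% of means below 200 in vitro and 95.3% in vivo. For means between 600 and 800 it was 95.1% in vitro and 83.4% in vivo, and shifted values gave a solution in 66.7% and 76.3% of cases there, against 1.41% and 1.51% below 200. A gene without whole reads but with a high mean could therefore be solved wrongly. Size factors were 1.09, 0.965 and 0.806 for the in vitro libraries and 1.24, 1.13 and 0.885 for the in vivo libraries, A to C each. Of the 12 members without reads, 5 had a mean of 1000 or more, 4 had several solutions (Ddx11, Ddx28, Dhx8 and Dhx30) and 3 had no whole solution in a group (Ddx19a, Ddx19b and Dhx37).

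Recovered reads were fitted with limma 3.58.1 voom in R 4.3.3, using the size factors as relative library sizes, 2-sided tests and Benjamini-Hochberg adjustment over all genes of the fit, called at an adjusted p below 0.05. Both the recovery and the fit were tested on simulated data for means below 200 only. Recovery at higher means and the wider fit were not simulated. These p-values measure only the spread between libraries, which may be technical, and reads carry no molecular identifiers. Called members and the 5 with the highest means were named with both means, fold and PPEE, every other member at least once in its role, and of the other lists the called genes. Members, role lists and partner lists were chosen with earlier results of these data known. Alternatives tried were other call rules, pseudocounts, scalings, low-value filters and the omission of each library.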

Additional observations from a re-analysis of the deposited data

How the results depend on the processing

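Counts of members called by PPEE kept within 1.5 times under a PPEE below 0.01, while asking for 1.5-fold left 5 lower calls of 9. A mean of at least 10, which drops Dhx37, and the omission of Ddx11 could not change these counts, since neither gene was called. The members' median log2 change stayed between -0.17 and -0.09 under all 5 alternatives. No sign of a called member turned under any pseudocount or scaling, but none of these settings could turn one. A pseudocount added to both means keeps their order. Scaling to the same sum shifted log2 changes by -0.05, and centring took off the all-gene median of 0.02. The called change nearest to 0 was -0.41, for Ddx58. The limma voom count of 2 members below a mean of 200 was the same on log2(normalised reads + 1) and with median-ratio scaling. Asking for at least 10 reads removed no gene from the 5802 of the first fit or the 8798 of the wider one. That filter therefore repeated the same fits and checks nothing. In the wider fit the count was 6. Leaving out single libraries gave 0 to 3 members in the first fit and 0 to 14 in the wider one. In the first fit it was 3 without in vitro library A, 0 without in vitro library C and 1 without any other library. In the wider fit it was 14 without in vitro library A, 2 without in vitro library B, 3 without in vivo library C and 0 without in vitro library C or in vivo library A or B, when 0.409%, 0% and 0.386% of all genes were called. In those 3 fits limma voom had 12, 12 and 10 members at an unadjusted p below 0.05, beside 23.2%, 23.6% and 21.4% of all genes. The cause was not tested. No paired analysis was possible because the deposited columns are group means and carry no replicate numbers. Depth limits the low members most: Ddx20 had 2 to 16 reads per in vivo library.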

Other observations

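Because Ddx60 and Ddx58 are interferon targets, 66 other interferon-stimulated and antiviral genes were looked up, a list chosen after the values of both helicases had been seen. Of 22 with a row, 0 were called higher and 2 lower in vitro. That is 9.09% lower, near the 8.31% over all genes, of which 6.75% were called higher. A lower mean in vitro was found for 16 of the 22, while 51.1% of all genes had a higher one. The median log2 change was -0.20, beside 0.02 over all genes. Ifnar1, a subunit of the type I interferon receptor, had means of 192 in vitro and 405 in vivo, 2.11-fold lower in vitro, and the authors' deposited table listed a PPEE of 9.79e-09. Recovered reads of Ifnar1 were 259, 162 and 137 in the 3 in vitro libraries, against 528, 508 and 300 in the 3 in vivo libraries. Jak1, a kinase bound to that receptor, was 1.85-fold lower in vitro and the authors' deposited table listed a PPEE of 5.26e-12. The signal transducer Stat2 lay within 1.05-fold of its in vivo mean, and Mavs, the adaptor below the RIG-I protein, was 1.25-fold lower without a call. Dtx3l was 2.26-fold lower in vitro and Parp12 2.40-fold higher, neither of them called, at PPEE values of 0.523 and 0.236 per the authors' deposited table.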
